A study of Homo sapiens with 6 samples.

Results

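The direct p53 target genes are a set of 33 genes that the transcription factor p53 is known to switch on. They were taken by symbol from the annotated probe sets, with the row of the highest mean over the 6 arrays kept for a gene, and no member had more than 1 row. Of the 33, 31 had a probe set with a single symbol, out of 18417 genes named this way. BTG2, an anti-proliferative gene, and FDXR, a mitochondrial ferredoxin reductase, are not analysed here.

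The data are 6 Affymetrix arrays, each of a group of its own. HCT116, a human colon cancer line known to carry functional p53, and HCT116-p53KO, its derivative described as p53-deficient, were each transfected with control siRNA or with siRNA against NRF3, and RNA was taken 48 h later. H1299, derived from a human non-small cell lung carcinoma and known to lack p53, stably expressed GFP or NRF3 from a plasmid after G-418 selection. The sources used here do not say whether HCT116-p53KO or the H1299 lines are single clones, nor which siRNAs were used. NRF3, encoded by NFE2L3, is a basic leucine zipper transcription factor.

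p53 is stabilised when cells meet DNA damage, nucleolar stress or oncogene activity, and it then binds response elements near its target genes. The targets halt the cell cycle, start apoptosis, repair DNA, adjust metabolism and redox state, and, through MDM2, bring p53 itself back down. Several targets also answer to other factors: SESN2, GDF15, CDKN1A and TP53INP1 can be induced without p53, for example in nutrient or endoplasmic reticulum stress. A change in a target gene is therefore not a measurement of p53 activity.

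All levels are RMA log2 intensities and all differences are on the log2 scale, where 1 is a 2-fold difference. A gene was counted in a comparison when at least 1 of its 2 arrays reached a log2 intensity of 6, and a difference of 1.5-fold or more (0.58 on the log2 scale) was counted as a difference of size. Since each group had a single array, differences between arrays have neither an error nor a replicate check. NFE2L3 stood at 8.97 and 6.62 in HCT116 with control and NRF3 siRNA, at 8.71 and 7.15 in HCT116-p53KO, and at 8.18 and 10.20 in H1299 with GFP and NRF3, in the direction of the labels. The gene deleted in HCT116-p53KO is not analysed here, so its labels were not checked through that gene. Of 11 colon epithelial markers, 7 or 8 reached 6 on the HCT116-family arrays, with EPCAM at 10.9 to 11.4 but CDH17 and KRT20 under 6, and 4 or 5 did in H1299. Of 5 lung epithelial markers, 0 reached 6 in H1299 and 2 or 3 did on the HCT116-family arrays. Of 5 mesenchymal markers 4 reached 6 on every array, VIM in H1299 at 12.5 and 12.1. Of 5 fibroblast markers 3 did on the HCT116-family arrays and 1 in H1299, and of 3 leukocyte markers 0 or 1 and 0 did. The H1299 arrays had a lower overall intensity (medians of 6.08 and 6.05, against 6.95 or more), so levels were compared only within H1299 or among the 4 HCT116-family arrays.

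The p53 response element consists of a pair of 10-base units, each with 3 purines, the core C, A or T at 2 positions, G, and 3 pyrimidines. It was searched in 300-base promoter windows (250 bases before to 50 after each annotated start, RefSeq, GRCh38.p14), with the units adjacent, at most 3 mismatches in 20 bases and the C and G of both cores intact. The element is its own reverse complement, so 1 strand covers both. Of the 33 members, 27 were in the table, with 41 starts, some of them overlapping. A match was found for 8 of the 27 genes and in 9 of the 41 windows, against 1.12% of all 35116 windows. With at most 2 mismatches there were 4 genes and 5 windows, against 0.285% of all windows. These genes are known for p53 binding, so the matches are a description of the set. The matches of the 7 genes with array values are shown because the knockout comparison turns on several of them. Capitals mark the 20 bases of the site, its mismatched bases included, and each line reads 5′ to 3′ on the gene's strand.
DDB2: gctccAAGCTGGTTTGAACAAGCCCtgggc
FAS: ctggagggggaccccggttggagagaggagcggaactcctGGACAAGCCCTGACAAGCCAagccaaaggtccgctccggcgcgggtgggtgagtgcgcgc
MDM2: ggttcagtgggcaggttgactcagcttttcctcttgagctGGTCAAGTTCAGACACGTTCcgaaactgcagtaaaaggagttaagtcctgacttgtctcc
AEN: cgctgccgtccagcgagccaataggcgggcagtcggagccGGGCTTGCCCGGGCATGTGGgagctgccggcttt
SESN1: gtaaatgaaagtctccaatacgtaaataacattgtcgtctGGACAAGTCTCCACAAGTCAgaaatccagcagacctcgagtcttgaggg
RPS27L: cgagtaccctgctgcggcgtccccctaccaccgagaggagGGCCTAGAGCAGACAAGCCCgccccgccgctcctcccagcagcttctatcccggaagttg
GDF15: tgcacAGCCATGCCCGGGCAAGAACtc

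The windows lie at chr11:47214964-47214993 on the plus strand for DDB2, chr10:88991269-88991368 plus for FAS, chr12:68808883-68808982 plus for MDM2 and chr15:88621266-88621339 plus for AEN. Those of SESN1 (chr6:109008989-109009077, minus strand), RPS27L (chr15:63157487-63157586, minus) and GDF15 (chr19:18386181-18386207, plus) complete the set. DDB2 had 1 mismatch, AEN, FAS and MDM2 had 2, and GDF15, RPS27L and SESN1 had 3. With the start base as 0, the FAS match began at -122 and the MDM2 match at -94, each before a start that is 1 of several annotated for its gene. The GDF15 match lay after the start, at 28 to 47. The other 19 genes in the table had no match in these windows, which says only that these letters are not there. CDKN1A is among them, and its known p53 elements lie farther upstream than the window reaches.

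The comparison of HCT116-p53KO with HCT116 asks how far the levels of the set differ between lines with and without p53. With control siRNA, 27 of 30 measured members were lower in HCT116-p53KO and 14 were lower by at least 1.5-fold, where 3.45% of 13827 genes were. With NRF3 siRNA, 29 of 30 were lower and 20 were lower by at least 1.5-fold, where 4.75% of 14007 genes were. None was higher by 1.5-fold in either comparison, where 0.868% and 5.60% of all genes were. Over all genes, 51.4% with control siRNA and 52.8% with NRF3 siRNA lay above 0. The members had median differences of -0.50 (control siRNA) and -0.77 (NRF3 siRNA), beside 0.01 and 0.02 over all genes. The exceptions were BBC3 (0.06), SESN2 (0.18) and PGF (0.20) with control siRNA, and PGF alone with NRF3 siRNA. These comparisons share no array with each other, and 14 members were at least 1.5-fold lower in both, where 2.22% of 13686 genes were. They spanned every functional group: the arrest genes CDKN1A and PLK2, the feedback gene MDM2, 6 death genes (BAX, FAS, TNFRSF10B, TP53INP1, RPS27L and CYFIP2), the repair genes DDB2 and RRM2B, the metabolic genes SESN1 and ABCA12, and the secreted GDF15. ABCA12 entered these counts only through its HCT116 arrays, and without it 13 of 29 members were lower in both. TP53INP1 likewise entered the NRF3 siRNA comparison only through its HCT116 array, with its knockout array under 6. With no filter on intensity, which brings in SPATA18, the count was 14 of 31.

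**Figure D1:**
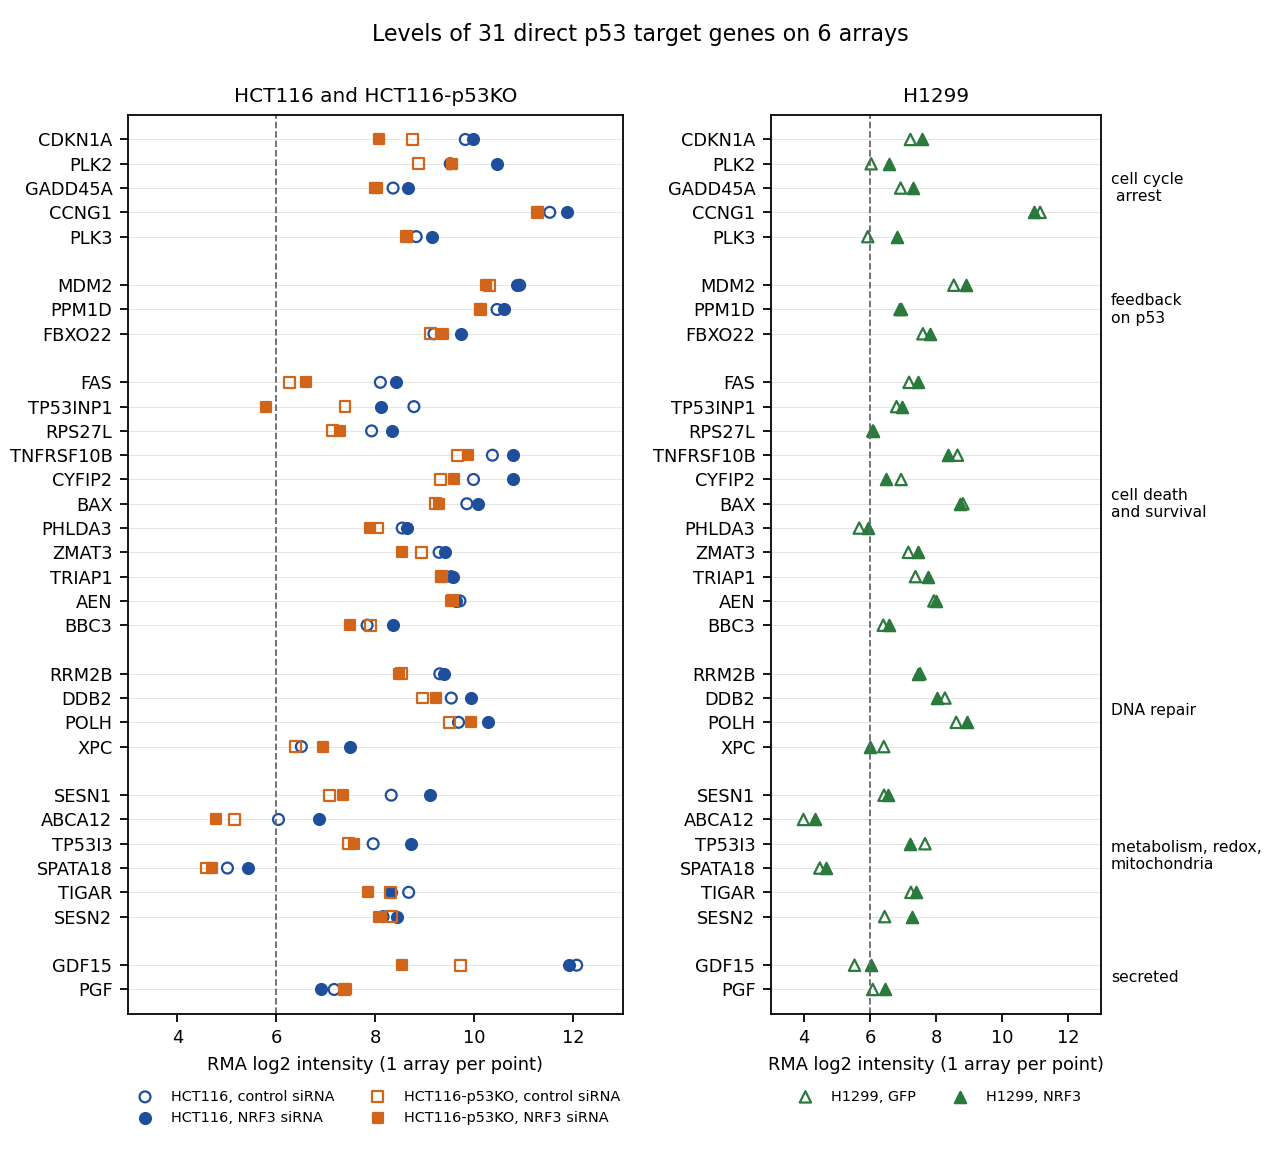
Log2 intensity (x axis) of each of the 31 members (rows, by function) on every array: circles for HCT116 and squares for HCT116-p53KO, open with control siRNA and filled with NRF3 siRNA, and triangles for H1299, open with GFP and filled with NRF3. The dashed line marks 6; SPATA18 lies left of it on all 6 arrays, and the squares lie left of the circles for genes such as FAS, SESN1 and GDF15.

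In what follows the 4 values of a gene are given in the order HCT116 control siRNA, HCT116 NRF3 siRNA, HCT116-p53KO control siRNA and HCT116-p53KO NRF3 siRNA. Among arrest genes, CDKN1A, which encodes the cyclin-dependent kinase inhibitor p21, stood at log2 intensities of 9.82, 9.98, 8.76 and 8.07. PLK2, a stress-induced polo-like kinase, stood at 9.52, 10.47, 8.88 and 9.54. For CDKN1A both knockout arrays were below both HCT116 arrays, whereas for PLK2 the knockout array with NRF3 siRNA lay level with the HCT116 control array. The line difference was -1.06 and -1.92 for CDKN1A and -0.64 and -0.93 for PLK2, the control siRNA arrays first. GADD45A, a stress sensor that acts in arrest and repair, stood at 8.36, 8.67, 8.02 and 8.0. CCNG1, cyclin G1, stood at 11.53, 11.88, 11.28 and 11.29. Both passed 1.5-fold only between the NRF3 siRNA arrays, at -0.66 and -0.59. PLK3, another polo-like kinase, stood at 8.83, 9.15, 8.63 and 8.64 and was lower by less than 1.5-fold, at -0.20 and -0.51.

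The feedback genes limit p53. MDM2, the ubiquitin ligase that degrades p53, stood at 10.92, 10.86, 10.30 and 10.24, so the line difference was nearly equal with either siRNA (-0.61 and -0.63). Its annotated span overlaps that of CPM, a carboxypeptidase gene at -0.73 and -1.49 in these comparisons. After NRF3 siRNA in HCT116, CPM was at 0.56 and MDM2 at -0.05. PPM1D, the phosphatase WIP1, differed by -0.33 and -0.49, and FBXO22, an F-box protein, by -0.07 and -0.37. Of these 3 genes MDM2 alone was lower by 1.5-fold under both siRNAs.

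Of 11 death and survival genes, 6 were lower by at least 1.5-fold with control siRNA and 9 with NRF3 siRNA. FAS, a death receptor, stood at 8.10, 8.41, 6.26 and 6.60, and TP53INP1, a regulator of cell death and autophagy, at 8.78, 8.11, 7.39 and 5.78. FAS was 3.58-fold and 3.50-fold lower in HCT116-p53KO with control and NRF3 siRNA, and TP53INP1 2.63-fold and 5.04-fold lower, the last resting on an array under 6. FAS overlaps ACTA2 in the annotation, and ACTA2 was itself at -0.79 and -2.12 in these comparisons, so these signals may not be separate. After NRF3 siRNA in HCT116, ACTA2 was higher by more than 2-fold, whereas FAS was higher by less than 1.5-fold (0.31 on the log2 scale). TNFRSF10B, the TRAIL receptor DR5, stood at 10.37, 10.79, 9.67 and 9.88, and BAX, a pore-forming effector of apoptosis, at 9.85, 10.07, 9.21 and 9.28. RPS27L, a ribosomal protein paralog, stood at 7.92, 8.34, 7.14 and 7.28, and CYFIP2, a partner of the fragile X protein, at 9.98, 10.77, 9.31 and 9.60. For these 4 genes both knockout arrays lay below both HCT116 arrays. BBC3, which encodes the BH3-only protein PUMA, stood at 7.83, 8.35, 7.90 and 7.48, level between the lines with control siRNA (0.06) and lower with NRF3 siRNA (-0.86). ZMAT3, an RNA-binding zinc finger protein, stood at 9.29, 9.40, 8.93 and 8.54, and PHLDA3, an inhibitor of AKT, at 8.54, 8.64, 8.05 and 7.89. Each had its knockout arrays lowest but passed 1.5-fold only between the NRF3 siRNA arrays (-0.86 and -0.75). AEN, an apoptosis-enhancing nuclease, was nearly level (-0.15 and -0.10) although its promoter window holds an element with 2 mismatches, and TRIAP1, a survival factor of mitochondria, differed by -0.20 and -0.25.

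Among repair genes, RRM2B, the p53-inducible ribonucleotide reductase subunit, stood at 9.30, 9.39, 8.52 and 8.48. DDB2, which recognises ultraviolet damage, stood at 9.54, 9.93, 8.95 and 9.23. Both were lower in HCT116-p53KO with either siRNA, RRM2B by 0.78 and 0.91 and DDB2 by 0.59 and 0.70 on the log2 scale. XPC, the damage recognition factor of nucleotide excision repair, and POLH, the translesion polymerase eta, stayed under 1.5-fold. XPC stood at 6.51, 7.49, 6.38 and 6.94, and POLH at 9.68, 10.28, 9.50 and 9.94. Both were highest in HCT116 after NRF3 siRNA, and their arrays ranked by siRNA before line, with line differences of -0.13 and -0.55 for XPC and -0.18 and -0.34 for POLH.

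Among metabolic genes, SESN1, a sestrin that restrains mTORC1, stood at 8.32, 9.11, 7.07 and 7.35, with line differences of -1.25 and -1.76. TP53I3, a quinone oxidoreductase, stood at 7.96, 8.73, 7.46 and 7.57, with differences of -0.50 and -1.15. ABCA12, a lipid transporter, stood at 6.04, 6.87, 5.16 and 4.78, under 6 on both knockout arrays, so the sizes of its differences (-0.88 and -2.09) are uncertain. SESN2, the stress-induced sestrin, stood at 8.16, 8.45, 8.33 and 8.08 and was not lower with control siRNA (0.18 and -0.37). TIGAR, a fructose bisphosphatase that lowers glycolytic flux, differed by -0.36 and -0.47, and SPATA18, a regulator of mitochondrial quality, lay under 6 on all 6 arrays.

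GDF15, a secreted stress cytokine, had the largest line difference of any member. It stood at 12.07, 11.91, 9.72 and 8.53, which is 5.11-fold lower in HCT116-p53KO with control siRNA and 10.4-fold lower with NRF3 siRNA. PGF, placental growth factor, was the only member higher in both, at 0.20 and 0.49, within 1.5-fold.

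**Figure D2:**
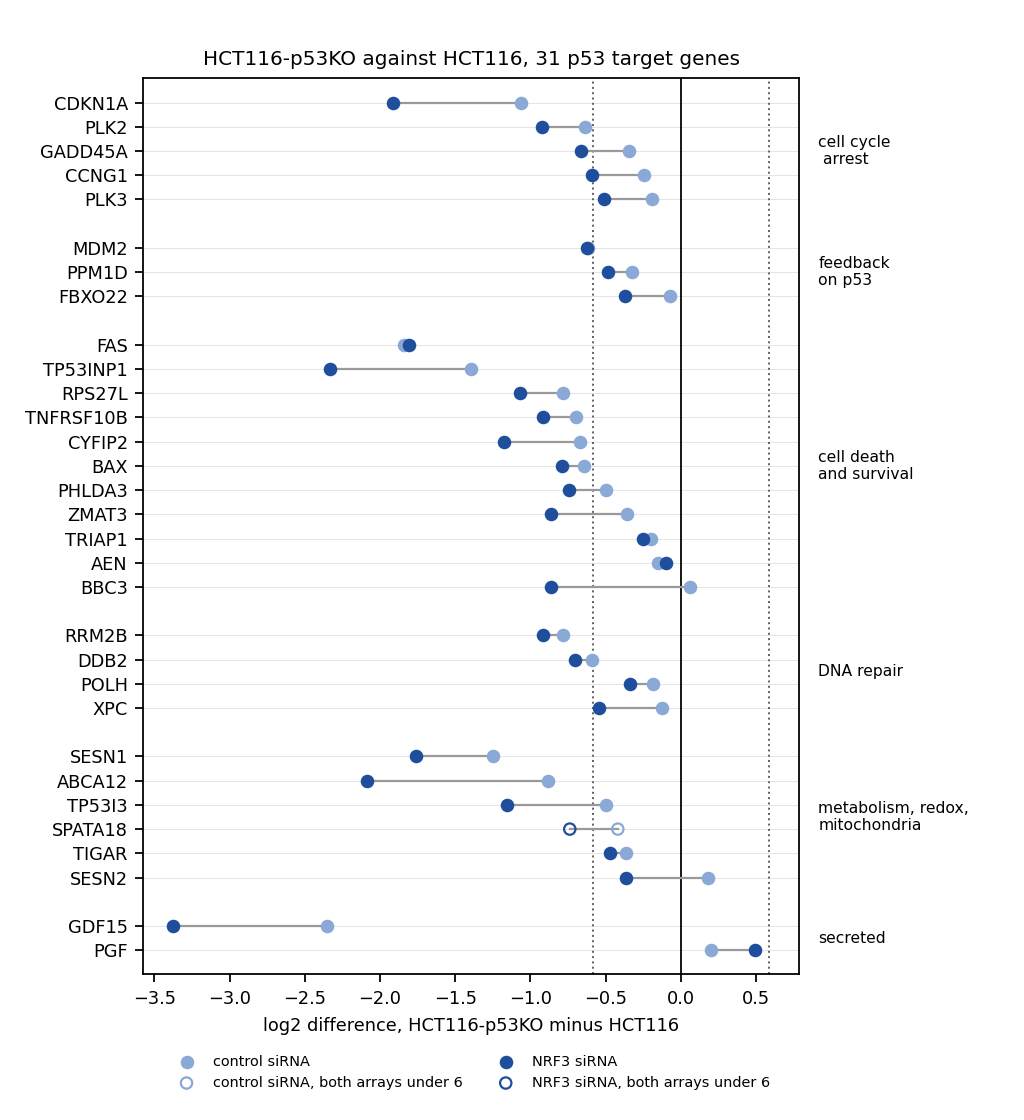
Log2 difference between HCT116-p53KO and HCT116 (x axis) for each member, with control siRNA (light) and NRF3 siRNA (dark), joined by a line; open circles mark a member under 6 on both arrays, and dotted lines mark 1.5-fold. Points lie left of 0 for all but BBC3, SESN2 and PGF with control siRNA and PGF with NRF3 siRNA, and GDF15 reaches -3.37 with NRF3 siRNA.

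limma, fitted to the 4 HCT116-family arrays with siRNA and line as additive terms, gives the line difference its only test. The replication is across siRNAs, not across repeated cultures, and with 1 residual degree of freedom limma used a common SE of 0.16 for every gene. At an adjusted p of 0.05 over 14148 genes, 18 of 30 members were lower in HCT116-p53KO, where 4.65% of genes were, and 0 were higher, where 3.46% were. In either direction 25 members had an unadjusted p of 0.05 or less, where 17.7% of all genes did. The 18 were the 14 named above and GADD45A, PHLDA3, ZMAT3 and TP53I3, and the weakest was GADD45A (-0.50 ± 0.16 SE, adjusted p = 0.0279). Without ABCA12, which passed the filter only through HCT116, 17 of 29 were called. With the variance prior of a fit to all 6 arrays, 5 members were called, where 1.27% of all genes were in either direction: CDKN1A, FAS, GDF15, SESN1 and TP53INP1. With each gene's own residual 0 were, and 2 had an unadjusted p of 0.05 or less, where 6.74% of all genes did.

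NRF3 siRNA in HCT116 asks how the set looked after knockdown where p53 is present. Of 30 measured members 24 were higher after NRF3 siRNA, where 51.6% of 14034 genes were, and the median was 0.31 beside 0.01 over all genes. By at least 1.5-fold 7 were higher, where 2.71% of genes were, and 1 was lower, where 6.02% were. The 7 were XPC (0.99), PLK2 (0.95), ABCA12 (0.83), CYFIP2 and SESN1 (0.79 each), TP53I3 (0.77) and POLH (0.60), and the gene that was lower was TP53INP1 (-0.67). All 4 repair genes were higher (median 0.50), as were 4 of 5 metabolic genes, with TIGAR at -0.36 the exception. All 5 arrest genes were higher (median 0.33), but CDKN1A was at 0.16. Of 11 death genes 9 were higher (median 0.22), with BBC3 at 0.52, TNFRSF10B and RPS27L at 0.42, FAS at 0.31 and BAX at 0.22. The feedback genes MDM2 (-0.05) and PPM1D (0.14) were nearly level, FBXO22 was at 0.55, and both secreted genes were lower (GDF15 at -0.16 and PGF at -0.26).

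The same siRNA in HCT116-p53KO asks which of these differences appear without p53. Here the set was divided, 15 of 29 measured members higher, where 50.5% of 13680 genes were, with a median of 0.01 beside 0.00 over all genes. By at least 1.5-fold 1 was higher, where 3.63% of genes were, and 3 were lower, where 2.38% were. The count of 1 in 29 higher is near the share of all genes. Of the repair genes, 3 of 4 were still higher (median 0.37). Death genes had a median of -0.01, arrest genes 0.01, metabolic genes -0.07 and feedback genes -0.02.

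The members that moved by 1.5-fold without p53 were TP53INP1, GDF15, CDKN1A and PLK2 in the HCT116-p53KO siRNA pair. In the H1299 pair, described below, they were PLK3 and SESN2, both higher with NRF3, where 4.82% of genes were. PLK3 entered that count only through its NRF3 array. PLK2 was the only member higher by 1.5-fold in the knockout pair, and both counts of higher members were near the shares of all genes. TP53INP1 was lower after NRF3 siRNA in both lines (-0.67 in HCT116 and -1.61 in HCT116-p53KO), and PLK2 was higher in both (0.95 and 0.66). In HCT116-p53KO TP53INP1 entered only through its control siRNA array. Its NRF3 siRNA array lay under 6 (5.78), so the size of -1.61 is uncertain. GDF15 was lower, at -1.18 in HCT116-p53KO against -0.16 in HCT116, and CDKN1A was at -0.69 against 0.16. XPC was just under the threshold at 0.57 (0.99 in HCT116), and POLH was at 0.45 (0.60). DDB2 (0.40 and 0.28), FAS (0.31 and 0.34) and FBXO22 (0.55 and 0.26) were also higher in both lines, and TIGAR was lower in both (-0.36 and -0.46). MDM2 was level in both, at -0.05 and -0.06.

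**Figure D3:**
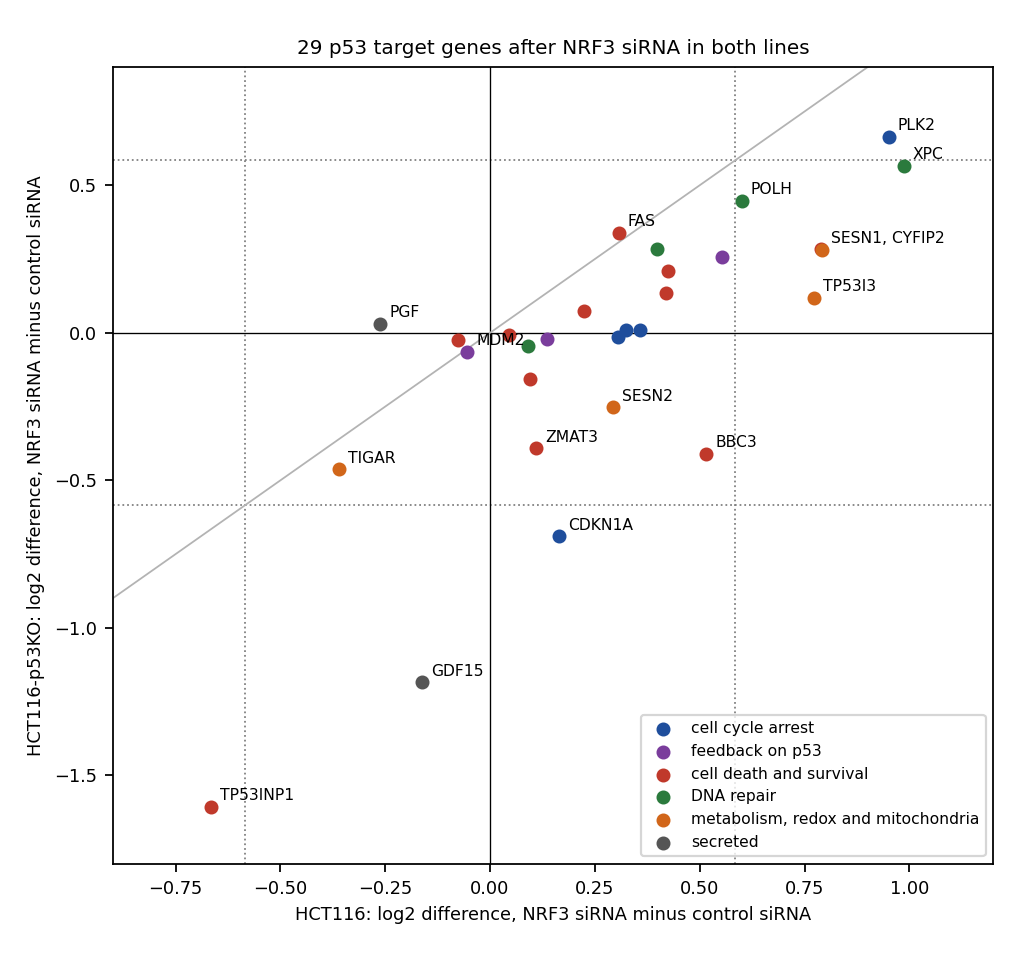
Log2 difference after NRF3 siRNA in HCT116 (x axis) against that in HCT116-p53KO (y axis) for the 29 members measured in both, coloured by function; dotted lines mark 1.5-fold and the diagonal marks equal differences. PLK2 and XPC lie at the upper right, TP53INP1 at the lower left, and most points lie below the diagonal.

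limma with cell line as a block, the other term of the same fit, called 7 of 30 members for the NRF3 siRNA effect at an adjusted p of 0.05. PLK2 rose by 0.81 ± 0.16 (SE, adjusted p = 4.11e-05), XPC by 0.78 (adjusted p = 9.09e-05), CYFIP2 and SESN1 by 0.54 (adjusted p = 0.0141 and 0.0142) and POLH by 0.52 (adjusted p = 0.0178), each higher in 2 of 2 lines. TP53INP1 fell by 1.14 (adjusted p = 7.64e-10) and GDF15 by 0.67 (adjusted p = 0.00101), both lower in 2 of 2 lines. The TP53INP1 value includes the HCT116-p53KO array with NRF3 siRNA, which lay under 6, so its size is uncertain. The 5 that rose stand beside 4.45% of all 14148 genes and the 2 that fell beside 5.43%. A count of 2 in 30 that fell is near that share. With the variance prior of the 6-array fit 0 members were called, with 9 at an unadjusted p of 0.05 or less, where 12.9% of all genes were. With each gene's own residual 0 were called, with 1 at that level, where 7.68% of all genes were. The replication here is across lines. With the common SE, how far a gene's siRNA difference itself varied between the lines did not enter its test: GDF15 was called at differences of -0.16 and -1.18. With quantile normalization repeated over all 6 arrays the calls were 4: PLK2, XPC, POLH and TP53INP1.

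Subtracting the knockout line's siRNA difference from that of HCT116 describes where the lines parted; it equals the change in the line difference between siRNAs and is no separate evidence. Each line comparison likewise shares an array with each siRNA pair. The subtracted value was above 0 for 27 of 30 members, where 44.7% of 14148 genes were, with a median of 0.29 beside -0.04 over all genes. It reached 1.5-fold for 6 members, where 2.61% of genes did, and was lower by 1.5-fold for 0, where 4.26% were. The 6 were ABCA12 (1.21), GDF15 (1.02), TP53INP1 (0.94), BBC3 (0.93), CDKN1A (0.85) and TP53I3 (0.65). ABCA12 entered this count only through its HCT116 arrays, with both knockout arrays under 6, so the size of its value is uncertain. The value of TP53INP1 includes a knockout array under 6, with NRF3 siRNA, so its size is uncertain as well. Among the 6 the size came from different arrays. For TP53I3 the HCT116 pair differed (0.77) and the knockout pair hardly did (0.12), whereas for GDF15 and CDKN1A the knockout pair differed and the HCT116 pair hardly did. MDM2 (0.01), FAS (-0.03), AEN (-0.05) and TRIAP1 (0.05) were equal in both lines to within 0.1, and PGF was lowest at -0.29. With 1 array per group this difference could not be tested.

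Overexpression of NRF3 in H1299 asks how the targets looked when NRF3 was raised in another line without p53. Of 28 measured members 20 were higher with NRF3 than with GFP, where 49.4% of 11304 genes were, with a median of 0.18 beside 0.00 over all genes. Only PLK3 and SESN2 were higher by 1.5-fold, where 4.82% of genes were, and none was lower by that much, where 4.20% were. A share of 2 in 28 is near that background. PLK3 and GDF15, both counted as higher, entered these counts only through their NRF3 arrays, with their GFP arrays under 6. PLK3 stood at 5.93 with GFP and 6.82 with NRF3, a difference of 0.89 that rests on a GFP array under 6. SESN2 stood at 6.44 and 7.28, a difference of 0.84. PLK2 (6.04 and 6.58) and GDF15 (5.53 and 6.04) came next, at 0.54 and 0.51, near the low end of the scale.

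By function, arrest genes were higher in 4 of 5 (median 0.38, with GADD45A at 0.38 and CDKN1A at 0.35) and feedback genes in 3 of 3 (MDM2 at 0.36). CDKN1A stood at 7.23 with GFP and 7.57 with NRF3, and MDM2 at 8.54 and 8.90. FAS stood at 7.19 and 7.45, so these 3 genes, lower in HCT116-p53KO, were all measurable in H1299 and slightly higher with NRF3. Death genes were higher in 7 of 10, between CYFIP2 at -0.45 and TRIAP1 at 0.37. Repair genes were lower in 3 of 4, with XPC at -0.41, DDB2 at -0.25 and RRM2B at -0.07, and POLH was at 0.34. TP53I3 was lower as well, at -0.45. Among members past 1.5-fold after NRF3 siRNA in HCT116, XPC, CYFIP2 and TP53I3 were higher in both HCT116 lines and lower with NRF3 in H1299. PLK2, POLH and SESN1 were higher in all 3 pairs, and TP53INP1 was lower after siRNA and at 0.18 in H1299. These H1299 differences were all under 1.5-fold. Other members had the same directions, such as DDB2 for the former pattern and FAS for being higher in all 3 pairs. PHLDA3, ABCA12 and SPATA18 lay under 6 on both H1299 arrays.

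**Figure D4:**
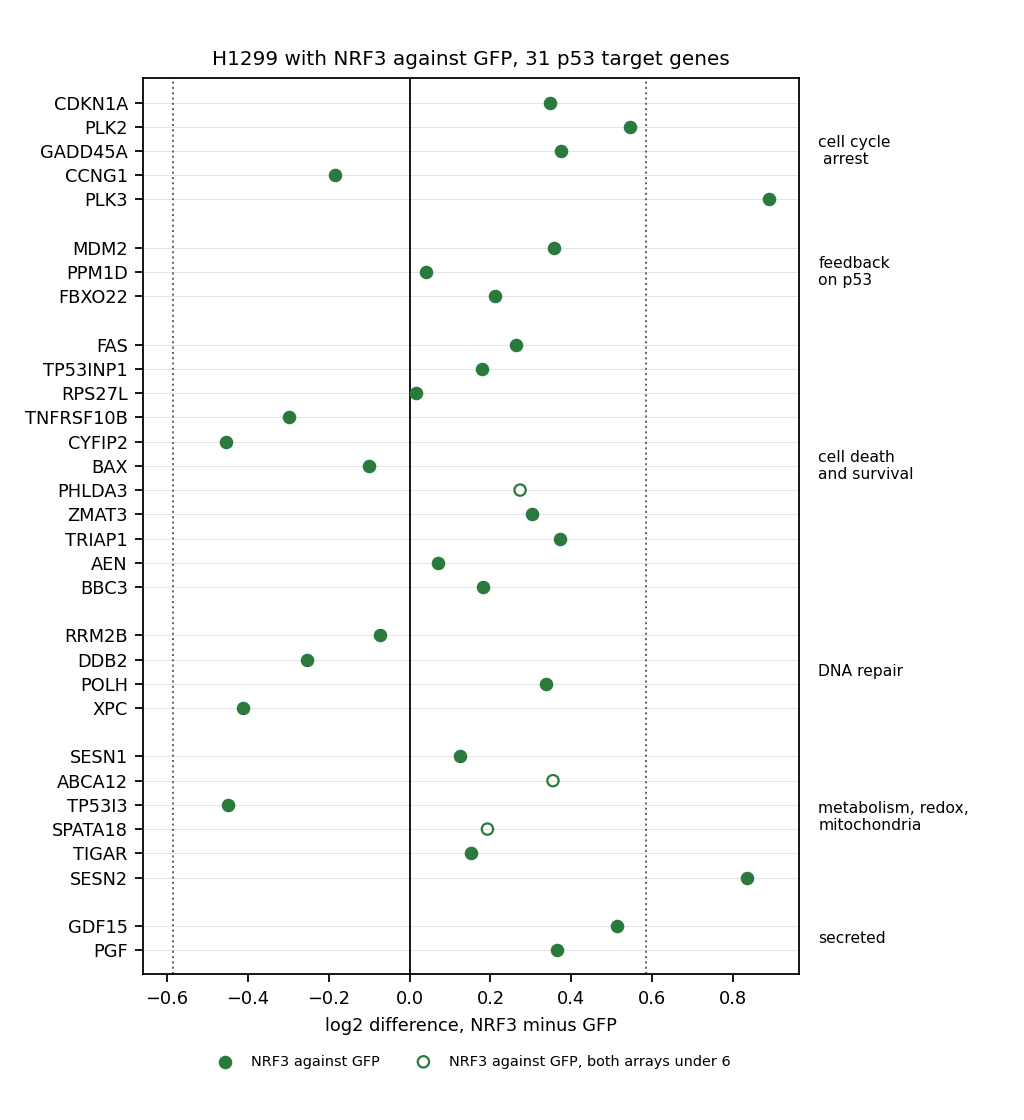
Log2 difference between H1299 with NRF3 and H1299 with GFP (x axis) for each member; open circles mark a member under 6 on both arrays, and dotted lines mark 1.5-fold. Only PLK3 (0.89) and SESN2 (0.84) lie beyond 1.5-fold.

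Genes of the pathway outside the set give its surroundings. Of 34 other p53 targets 29 were measured in the HCT116 lines. In HCT116-p53KO 23 of 29 were lower with control siRNA (median -0.12) and 24 with NRF3 siRNA (median -0.24), of which 3 and 4 were lower by 1.5-fold, where 3.45% and 4.75% of all genes were. With control siRNA the 3 were LIF, a cytokine (-1.63), KITLG, the KIT ligand (-0.84), and TGFA, a growth factor (-0.73). With NRF3 siRNA the 4 were LIF (-1.50), TGFA (-0.85), APAF1, the apoptosome scaffold (-0.84), and ACER2, an alkaline ceramidase (-0.76). APAF1 was just under 1.5-fold with control siRNA (-0.58), and KITLG was at -0.37 with NRF3 siRNA. After NRF3 siRNA 17 were higher in HCT116 (median 0.08) and 14 in HCT116-p53KO (median -0.01). PERP, a desmosomal mediator of apoptosis, was higher in both lines (0.85 and 0.70), and ACER2 was at -0.82 in HCT116-p53KO. In H1299 17 of 24 were higher (median 0.20), 4 of them by 1.5-fold (4.82% of all genes), and 1 was lower by that much (4.20%), with PMAIP1, the BH3-only protein NOXA, at 0.77, TNFRSF10D, a TRAIL decoy receptor, at 0.76, and PLTP, a phospholipid transfer protein, at -0.87.

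Of 21 regulators of p53, 20 were measured and none differed by 1.5-fold after NRF3 siRNA in either line. Over all genes, 2.71% were higher and 6.02% lower by that much in HCT116, and 3.63% and 2.38% in HCT116-p53KO. None of 20 is near these shares. In HCT116 14 of 20 were lower (median -0.12). MDM4, the MDM2 partner that inhibits p53, and CDKN2A were at -0.39 and DAXX at -0.37. RPL11, a ribosomal protein that binds MDM2, was at 0.45. In HCT116-p53KO 11 were higher (median 0.03), with RPL11 at 0.37 and MDM4 at 0.05. Between the lines, 13 of 20 were higher in HCT116-p53KO with control siRNA (median 0.06) and 17 with NRF3 siRNA (median 0.21). Over all genes, 51.4% and 52.8% were. By 1.5-fold 2 were higher, MDM4 (0.76) and ATM (0.64), both with NRF3 siRNA, where 5.60% of all genes were. MDM4 was at 0.32 with control siRNA. In H1299 TP53BP1, a DNA damage adaptor, was at -0.65.

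ATF4 is a transcription factor of amino acid and endoplasmic reticulum stress, and its targets are given beside GDF15 and SESN2, which can be induced in such stress. In HCT116 7 of 9 ATF4 targets were higher after NRF3 siRNA (median 0.36), 3 of them by 1.5-fold (2.71% of all genes), with ASNS, asparagine synthetase, at 0.81. GDF15 was at -0.16 there and SESN2 at 0.29. In HCT116-p53KO 7 of 9 were higher (median 0.20), 1 of them by 1.5-fold (3.63% of all genes), ATF4 itself at 0.71. The gene lower by 1.5-fold (2.38% of all genes) was CHAC1, a glutathione-degrading enzyme, at -0.80. GDF15 was at -1.18 and SESN2 at -0.25. In H1299 10 of 10 were higher with NRF3 (median 0.64), 5 of them by 1.5-fold (4.82% of all genes), with SESN2 at 0.84 and GDF15 at 0.51. The part of ATF4 in the differences of the p53 targets was not tested.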

How the data were processed

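Biotin-labelled RNA, made from 100 ng of total RNA with a whole-transcript kit, was put on Affymetrix arrays (per the labels' protocols). The authors deposited 33297 probe set values as log2 intensities. Per the submitters' processing notes they come from Expression Console and RMA, whose versions, like the set of arrays normalized jointly, are not stated there. The array's annotation table gave 19460 probe sets 1 symbol, 1754 several and 12083 none; those with 1 symbol gave 18417 genes. Groups were taken from sample titles, since the cell line field names HCT116 for HCT116-p53KO as well.

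Members and lists were chosen with earlier results of these data known. Differences were taken over genes for which an array of the comparison reached a log2 intensity of 6, and counted at 1.5-fold. The small number of arrays limits precision. limma 3.58.1 in R 4.3.3 was fitted to the 4 HCT116-family arrays with siRNA and cell line as additive terms, with Benjamini-Hochberg adjustment over all genes and two-sided p-values, and was tested on simulated data. Members past 1.5-fold in any of the 5 comparisons were given by value, and from the other pathway lists up to 4 genes with the largest differences per comparison. Alternatives were no filter, a filter of 7, averaging the probe sets of a gene, quantile normalization repeated over 6 arrays, loess correction (span 0.4), 2-fold, a list's mean, 3 other variance priors and an adjusted p of 0.10. The alternatives for counts over both siRNAs and for the difference between the lines were added after seeing the data, as were the counts without ABCA12. Promoter sequences are RefSeq's, GRCh38.p14.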

Additional observations from a re-analysis of the deposited data

Results flagged for a closer look

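CDKN1A was higher after NRF3 siRNA in HCT116 (0.16) and lower in HCT116-p53KO (-0.69), so the siRNA differences of the lines went opposite ways and parted by 0.85 on the log2 scale. BBC3 did the same, at 0.52 in HCT116 and -0.41 in HCT116-p53KO, and parted by 0.93. With 1 array per group these differences between the lines were not tested.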

How the results depend on the processing

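Among the alternatives, only repeated quantile normalization and loess correction could change a member's difference. Under both, every member past 1.5-fold kept its direction where it was measured. The filters only add or drop genes, and averaging changes nothing since no member had more than 1 row. At 2-fold in place of 1.5-fold, 0 members were higher or lower after NRF3 siRNA in HCT116, where 0.221% and about 1% of genes were. In HCT116-p53KO and H1299 0 were higher, where 0.278% and 0.681% of genes were. These counts of 0 are near the shares of all genes. After NRF3 siRNA in HCT116-p53KO 2 were lower, TP53INP1 (-1.61) and GDF15 (-1.18), where 0.431% of genes were. Between the lines 5 were lower with control siRNA, 9 with NRF3 siRNA and 5 with both, where 1.30%, 1.35% and 0.855% of all genes were. Repeated quantile normalization and loess correction each put 2 members, PLK2 and XPC, past 1.5-fold higher after siRNA in HCT116-p53KO. In H1299 loess correction put 4 past it (GDF15, PLK2, PLK3 and SESN2), and a filter of 7 left 1, SESN2. The line difference with NRF3 siRNA had a median of -0.88 after loess correction and a mean of -0.94, against -0.77. limma's calls for the siRNA effect were 0 with the 6-array prior, 0 with each gene's own residual and 4 after repeated quantile normalization, against 7; for the line they were 5 and 0 with those priors, against 18. The other alternatives kept counts within 1.5 times and medians within 0.1 of the values reported. The labels give no replicate numbers to pair by, and the limma fit, with line as a block, compares the siRNA pairs within lines on 1 residual degree of freedom. Signals under a log2 intensity of 6 limit SPATA18 on all arrays, ABCA12 in HCT116-p53KO and H1299, TP53INP1 in HCT116-p53KO with NRF3 siRNA, and GDF15, PHLDA3 and PLK3 in H1299.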
